A study of Mus musculus with 12 samples.

Results

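The genes Atp1b1, Fxyd1, Slc4a4 and Slc12a2 of the sodium pump and of sodium-coupled transport were followed in mouse heart ventricles. They were chosen by gene symbol, and all 4 had a row among the 14957 genes counted. Bulk RNA sequencing was available for 12 wild-type C57Bl/6J mice, 4 in each of 3 groups, in a study that delivered BacNav, a sodium channel of bacterial origin, to hearts under pressure overload. The Sham-NT group was sham-operated and injected with PBS. TAC-mScarlet mice had transverse aortic constriction (TAC), a surgical narrowing that raises the pressure the ventricle pumps against; they were given AAV9-MHCK7-mScarlet, a control vector that carries a fluorescent protein. TAC-BacNav mice had the same operation and were given AAV9-MHCK7-BacNav-mScarlet. MHCK7 is a promoter active in heart and skeletal muscle, so both vectors are aimed at muscle cells. Sham-NT mice received no vector, and constriction and vector cannot be told apart in a comparison with them. The labels do not state age, sex or time after surgery.

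The sodium pump (Na,K-ATPase) moves sodium out of the cell and potassium in, and its catalytic alpha subunit needs a beta subunit to reach the cell surface. Small FXYD proteins bind the pump and set its activity. In cardiac muscle the sodium gradient that it maintains drives calcium out through the sodium/calcium exchanger, acid out through sodium/proton exchange and sodium/bicarbonate cotransport, and chloride in through sodium/potassium/chloride cotransport. Atp1b1 encodes the beta subunit that predominates in cardiac muscle. Fxyd1 encodes phospholemman, the FXYD protein of cardiac and skeletal muscle, which inhibits the pump until it is phosphorylated. Slc4a4 encodes an electrogenic sodium/bicarbonate cotransporter, and Slc12a2 the widely expressed sodium/potassium/chloride cotransporter.

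None of the 4 genes differed between any pair of groups at an adjusted p below 0.05 (edgeR's quasi-likelihood test on all 12 libraries, Benjamini-Hochberg adjustment over 13910 genes). The background share of genes called was 5.17% for TAC-mScarlet against Sham-NT. It was 0% for TAC-BacNav against TAC-mScarlet, and 0.0144% where TAC-BacNav was set against Sham-NT. DESeq2 and limma-voom called 0 of the 4 as well, and at an unadjusted p below 0.05 there was 1 in the first comparison, Fxyd1, and 0 in the other two. Of all genes tested, 3092 (22.2%), 467 (3.36%) and 1544 (11.1%) had an unadjusted p below 0.05 in the 3 comparisons, so 1 of 4 is near the background share. For each of the 4 genes the libraries of every pair of groups overlapped, whereas 13.1%, 1.7% and 5.45% of all genes had no overlap in the 3 comparisons. In the second comparison, whose background is 0%, DESeq2 called 5 genes and limma-voom 0.

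Each Sham-NT library held 5360869 to 7837342 counts, each TAC-mScarlet library 8275608 to 9813733 and each TAC-BacNav library 7361063 to 11497836. The immediate early gene Fos was above 20 CPM (counts per 1000000, on TMM-scaled library sizes) in 7 libraries (mice 1 and 2 of Sham-NT, mice 1, 2 and 3 of TAC-mScarlet, mice 1 and 2 of TAC-BacNav) and at most 7.89 CPM in the other 5. The balance of genes with many and with few exonic bases also differed between libraries. An exon length index, the median log2 deviation of 4277 genes with over 6000 exonic bases minus that of 1465 genes with under 1500, ran from -0.23 to -0.19 in Sham-NT 1, 2 and 4 and reached 0.21 in Sham-NT 3, 0.20 in TAC-mScarlet 2 and 0.31 in TAC-BacNav 4. The tissue label fits the 8 ventricular cardiomyocyte markers, all of which were detected. Their summed level was 70460 to 82856 CPM in Sham-NT, 44191 to 59105 CPM in TAC-mScarlet and 52042 to 72537 CPM in TAC-BacNav. Summed levels of 3 atrial markers were 35.7 to 66.7, 380.3 to 2879 and 81.96 to 334.9 CPM, and include Nppa, which ventricles also make under load. Summed levels of 6 fibroblast markers were 1003 to 1271, 1461 to 3020 and 1255 to 1686 CPM, and those of 5 macrophage markers 384 to 483, 556 to 902 and 556 to 671 CPM. None of the tested markers was at 0 in every library of a group. In bulk tissue, fewer cells of a type and less RNA per cell cannot be told apart, and the part of these shifts in the values of the 4 genes was not tested.

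The upstream sequences of Atp1b1 and Fxyd1 are shown because these 2 genes varied in opposite directions across the libraries, as described further on. Each window is the 250 bases before the RefSeq start on GRCm38.p6, minus strand, written 5′ to 3′, with capitals for the motifs searched. The Atp1b1 window is chr1:164458356-164458605 and the Fxyd1 window is chr7:31054854-31055103, and neither overlaps an annotated exon in GENCODE vM21.
Atp1b1: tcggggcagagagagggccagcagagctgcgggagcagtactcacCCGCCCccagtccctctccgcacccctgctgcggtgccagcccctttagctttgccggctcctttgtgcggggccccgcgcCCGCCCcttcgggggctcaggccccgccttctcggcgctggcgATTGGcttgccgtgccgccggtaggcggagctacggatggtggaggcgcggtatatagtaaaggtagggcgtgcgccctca
Fxyd1: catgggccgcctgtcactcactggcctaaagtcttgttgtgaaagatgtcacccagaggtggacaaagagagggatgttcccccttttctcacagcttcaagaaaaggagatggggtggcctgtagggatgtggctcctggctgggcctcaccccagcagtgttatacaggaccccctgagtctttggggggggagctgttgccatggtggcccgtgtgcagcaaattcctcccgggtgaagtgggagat
The motifs searched, on both strands, were the GC box (GGGCGG), the CCAAT box (CCAAT), the TATA box (TATAAA), the E-box CACGTG, the cAMP response element (TGACGTCA) and the glucocorticoid response element. The Atp1b1 window, of 70.4% G and C, held 2 GC boxes and 1 CCAAT box that do not overlap, and the Fxyd1 window, of 57.2% G and C, held none of the motifs. Of 32851 RefSeq windows of the same length, 32.7% held a GC box, 33.8% a CCAAT box, 12.4% a TATA box, 6.02% the E-box, 1.55% the cAMP response element and 0.00913% the glucocorticoid response element. In GENCODE, Fxyd1 transcripts also start further upstream than this window.

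Atp1b1 (ENSMUSG00000026576.12; GRCm38 chromosome 1, 164437109 to 164458355, minus strand) varied most within the sham group. Its levels were 102, 104, 250.02 and 124 CPM in Sham-NT 1 to 4, and 186, 153, 166 and 223 CPM in TAC-mScarlet 1 to 4. In TAC-BacNav 1 to 4 they were 169, 182, 154 and 282 CPM. Sham-NT 3 stood above every TAC-mScarlet library, while the other 3 Sham-NT libraries stood below every library of both constricted groups. Group means were 145 ± 70.7 CPM in Sham-NT, 182 ± 30.5 CPM in TAC-mScarlet and 197 ± 57.8 CPM in TAC-BacNav (SD, n = 4).

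The order of the Atp1b1 means was Sham-NT, TAC-mScarlet, TAC-BacNav, and neighbours in that order did not differ beyond their spread. The log2 fold change of TAC-mScarlet over Sham-NT was 0.32 ± 0.28 (SE, 95% interval -0.27 to 0.92, edgeR adjusted p = 0.541). TAC-BacNav over TAC-mScarlet gave 0.11 ± 0.27 (-0.48 to 0.70, adjusted p = 0.9995), and TAC-BacNav over Sham-NT gave 0.44 ± 0.28 (-0.15 to 1.03, adjusted p = 0.567). These intervals include no change and, against Sham-NT, also a rise of 1.89-fold in TAC-mScarlet and 2.05-fold in TAC-BacNav.

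One sham library decided the call of Atp1b1 in TAC-mScarlet against Sham-NT. Without Sham-NT 3 the log2 fold change of TAC-mScarlet was 0.73 ± 0.19 (edgeR adjusted p = 0.0375), and without any other single library it was 0.19 to 0.39 (adjusted p = 0.509 to 0.792). The count of calls over all genes moved as well in this comparison. It was 719 with all 12 libraries and 14 to 1055 with 1 library left out. For TAC-BacNav against Sham-NT no single library changed the call. The value was 0.84 without Sham-NT 3 (adjusted p = 0.0806), and 0.21 without TAC-BacNav 4, the highest library of its group (adjusted p = 0.943). Within the 7 libraries with high Fos (3 TAC-mScarlet, 2 Sham-NT) TAC-mScarlet exceeded Sham-NT by 0.71 ± 0.13 (edgeR adjusted p = 0.0124), and Sham-NT 3 is again left out. Within the 5 libraries with low Fos (1 TAC-mScarlet, 2 Sham-NT, the lone library assumed to vary like the others) the difference was 0.24. With Fos as a covariate of 2 classes, above or below 20 CPM, in all 12 libraries it was 0.50 ± 0.22 (edgeR adjusted p = 0.165). With the exon length index as a covariate the difference was 0.13 ± 0.17 (adjusted p = 0.722).

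**Figure D1:**
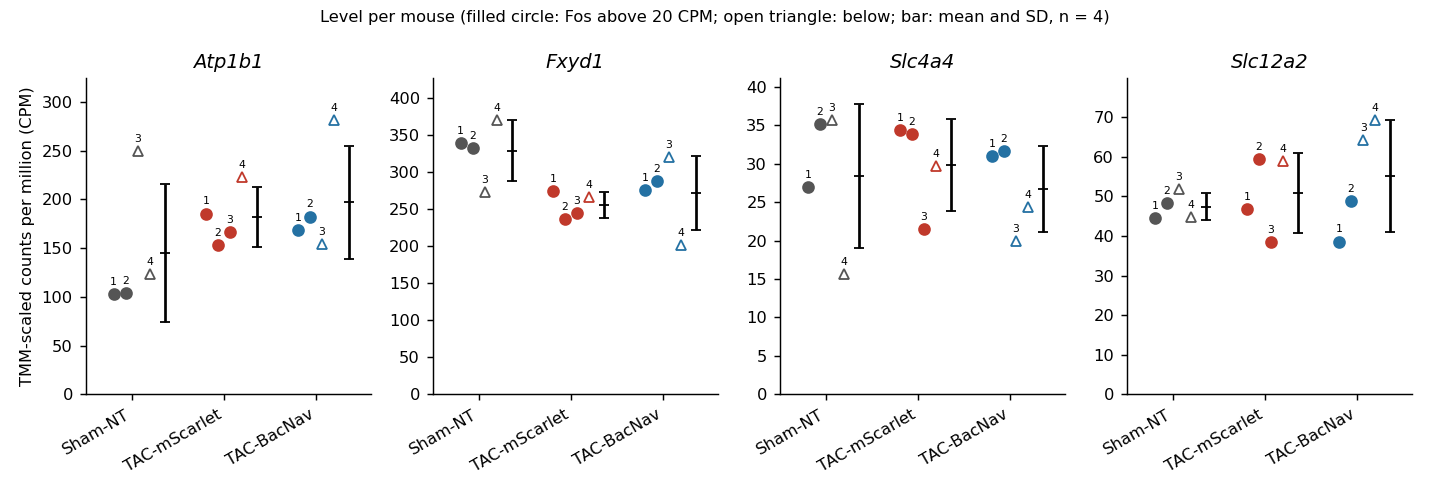
Level of Atp1b1, Fxyd1, Slc4a4 and Slc12a2 in each mouse, in TMM-scaled CPM (y axis, from 0) by group (x axis); digits are mouse numbers, filled circles are libraries with Fos above 20 CPM and open triangles those below, and bars give the mean and SD (n = 4). Sham-NT 3 stands apart for Atp1b1 at 250.02 CPM against 102 to 124 CPM in the other sham libraries, and the groups overlap in every panel.

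**Figure D2:**
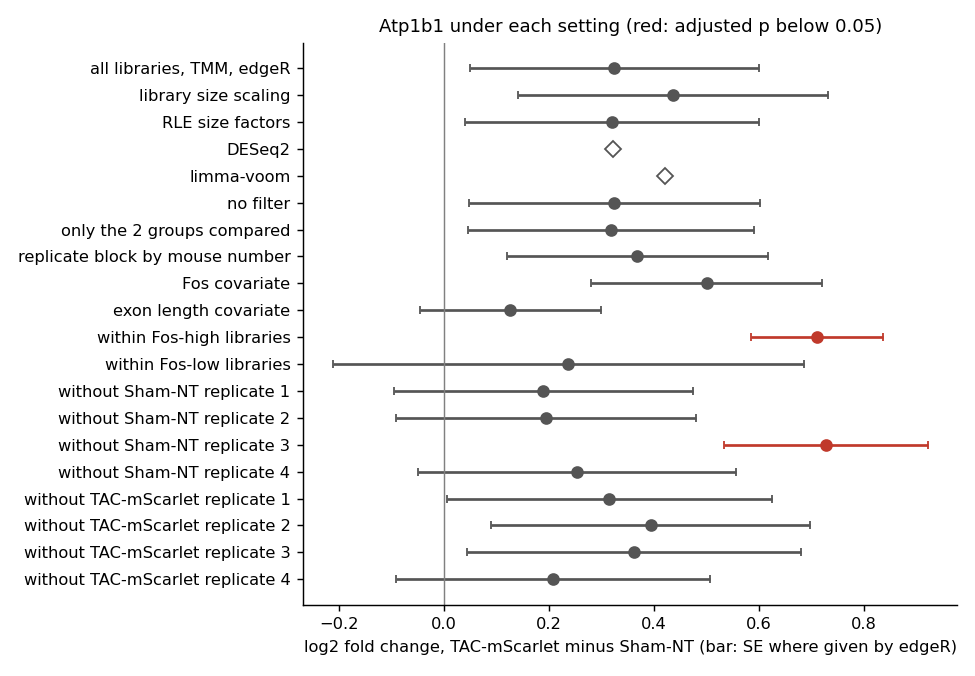
Log2 fold change of Atp1b1, TAC-mScarlet minus Sham-NT (x axis), under each setting (y axis); points carry the SE where edgeR gives one, open diamonds are DESeq2 and limma-voom, and red marks an adjusted p below 0.05. The estimate lies above 0 in every setting drawn and passes the test in 2 of them, without Sham-NT 3 and within the libraries with high Fos. Both of these settings leave out Sham-NT 3.

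Exons of Atp1b1 share 575 bases with Nme7 on the opposite strand, and the labels do not say whether counting used strand. In these libraries Nme7 was at 2.88 ± 1.28, 3.44 ± 1.53 and 3.91 ± 1.10 CPM in the 3 groups, against at least 102 CPM of Atp1b1 in every library.

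Fxyd1 (ENSMUSG00000036570.14; chromosome 7, 31051678 to 31057199, minus strand) gave the smallest p of the 4 genes. Its levels were 339, 333, 273 and 371 CPM in Sham-NT 1 to 4, 275, 237, 244 and 267 CPM in TAC-mScarlet 1 to 4, and 275, 288, 321 and 202 CPM in TAC-BacNav 1 to 4. All TAC-mScarlet libraries stood below Sham-NT 1, 2 and 4, and TAC-mScarlet 1 stood just above Sham-NT 3, so the groups overlapped by 1 library. Means were 329 ± 40.9, 256 ± 17.9 and 271 ± 50.2 CPM (SD, n = 4).

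From highest to lowest the Fxyd1 means ran Sham-NT, TAC-BacNav, TAC-mScarlet, with no neighbours separated by the test. TAC-mScarlet over Sham-NT gave a log2 fold change of -0.36 ± 0.14 (SE, 95% interval -0.67 to -0.06), with an unadjusted p of 0.0216 and an edgeR adjusted p of 0.144. TAC-BacNav over TAC-mScarlet gave 0.09 ± 0.14 (-0.22 to 0.39, adjusted p = 0.9995), and TAC-BacNav over Sham-NT gave -0.28 ± 0.14 (-0.58 to 0.02, adjusted p = 0.481). The first difference was negative in each of the 19 other fits, from -0.44 without Sham-NT 3 (adjusted p = 0.0606) to -0.22 with the exon length covariate (adjusted p = 0.285), and passed the threshold in none. It was -0.41 within the libraries with high Fos (adjusted p = 0.0723) and -0.28 within those with low Fos (adjusted p = 0.900). The 8 ventricular cardiomyocyte markers had a median log2 fold change of -0.51 in the same comparison, with 3 of 8 called lower, and their part in the Fxyd1 value was not tested.

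Slc4a4 (ENSMUSG00000060961.16; chromosome 5, 88886818 to 89239653, plus strand) was the lowest of the 4 genes. Its levels were 27.0, 35.1, 35.7 and 15.7 CPM in Sham-NT 1 to 4, 34.4, 33.9, 21.5 and 29.7 CPM in TAC-mScarlet 1 to 4, and 31.04, 31.6, 19.9 and 24.3 CPM in TAC-BacNav 1 to 4. Both the lowest and the highest library of the series were sham libraries. Counts were 98 to 299 per library, which by counting alone gives a coefficient of variation of 5.78% to 10.1%, whereas the libraries varied by 32.9% in Sham-NT, 20.0% in TAC-mScarlet and 21.1% in TAC-BacNav.

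Group means of Slc4a4 were 28.4 ± 9.35 CPM for Sham-NT, 29.9 ± 5.98 CPM for TAC-mScarlet and 26.7 ± 5.63 CPM for TAC-BacNav (SD, n = 4), and no neighbours in the order of these means were separated by the test. TAC-mScarlet over Sham-NT gave a log2 fold change of 0.07 ± 0.23 (SE, 95% interval -0.43 to 0.57, edgeR adjusted p = 0.902). TAC-BacNav over TAC-mScarlet gave -0.16 ± 0.23 (-0.65 to 0.33, adjusted p = 0.9995), and TAC-BacNav over Sham-NT gave -0.09 ± 0.23 (-0.59 to 0.41, adjusted p = 0.911). The intervals allow a level up to 1.48-fold that of Sham-NT in TAC-mScarlet, and the sign of this difference turned without Sham-NT 4 (-0.13) or without TAC-mScarlet 1 (-0.0047).

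Slc12a2 (ENSMUSG00000024597.11; chromosome 18, 57878678 to 57946821, plus strand) was the steadiest of the 4 in sham hearts and spread in the constricted groups. Its levels were 44.6, 48.4, 51.8 and 44.9 CPM in Sham-NT 1 to 4, 46.7, 59.3, 38.5 and 58.9 CPM in TAC-mScarlet 1 to 4, and 38.6, 48.8, 64.2 and 69.4 CPM in TAC-BacNav 1 to 4. The coefficient of variation was 7.13% in Sham-NT, 19.9% in TAC-mScarlet and 25.6% in TAC-BacNav, with 3.44% to 6.67% from counting, and the difference in spread was not tested. Each constricted group held libraries both above and below the whole sham range.

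Slc12a2 means of 47.4 ± 3.38, 50.9 ± 10.1 and 55.2 ± 14.1 CPM (SD, n = 4) put Sham-NT lowest and TAC-BacNav highest, with no neighbours separated. TAC-mScarlet over Sham-NT gave 0.10 ± 0.18 on the log2 scale (SE, 95% interval -0.28 to 0.48, edgeR adjusted p = 0.799). TAC-BacNav over TAC-mScarlet gave 0.12 ± 0.18 (-0.25 to 0.49, adjusted p = 0.9995), and TAC-BacNav over Sham-NT gave 0.22 ± 0.18 (-0.16 to 0.60, adjusted p = 0.652). The first difference was -0.10 with the exon length covariate (adjusted p = 0.763), and the second was -0.01 without TAC-BacNav 4 (adjusted p = 0.9997).

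**Figure D3:**
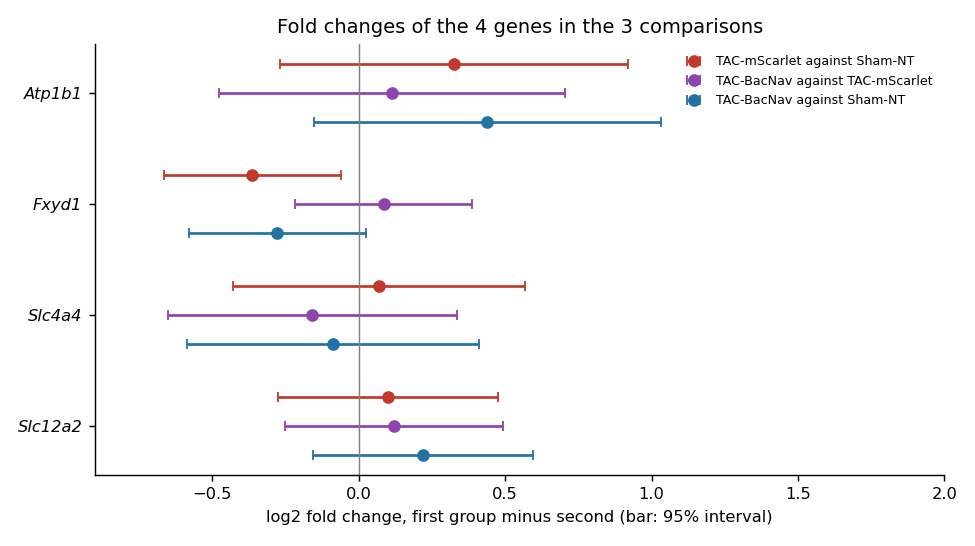
Log2 fold changes of Atp1b1, Fxyd1, Slc4a4 and Slc12a2 (y axis) in the 3 comparisons (colours), first group minus second (x axis); points are edgeR estimates and bars 95% intervals. Only the interval of Fxyd1 in TAC-mScarlet against Sham-NT, -0.67 to -0.06, leaves out 0, and its adjusted p was 0.144.

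Across the 12 libraries Atp1b1 and Fxyd1 varied inversely. Pearson's r of log2(CPM + 1) was -0.76 (permutation p = 0.00459, adjusted p = 0.0153 over 10 relations) and Spearman's rho was -0.66 (permutation p = 0.0222, adjusted p = 0.0555). The shuffles ignored group, so these p-values also take in differences between group means. After removal of each group's mean r was -0.68, for which no p was computed, and in the 7 libraries with high Fos it was -0.73 (permutation p = 0.0763). Without Sham-NT 1 and TAC-BacNav 4, the libraries farthest from the median of Atp1b1, r was -0.58 (permutation p = 0.0818), so the pooled relation rests in part on those 2 libraries. The other 5 pairs among the 4 genes had r between -0.36 and 0.44, with adjusted p of 0.298 or more.

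Atp1b1, Fxyd1 and Slc12a2 also followed the exon length index. Against it, Atp1b1 had r = 0.83 and rho = 0.78 (permutation p = 9.3e-04 and 0.00433, adjusted p = 0.0093 and 0.0234). Fxyd1 had r = -0.77 and rho = -0.75 (permutation p = 0.00342 and 0.00702, adjusted p = 0.0153 and 0.0234). Slc12a2 had r = 0.73 and rho = 0.76 (permutation p = 0.00799 and 0.00553, adjusted p = 0.01997 and 0.0234). Slc4a4 had r = 0.23 and rho = 0.15 (permutation p = 0.482 and 0.633, adjusted p = 0.603 and 0.703). Without Sham-NT 3 and TAC-BacNav 4, the libraries farthest from the median index, r was 0.67 for Atp1b1, -0.68 for Fxyd1 and 0.66 for Slc12a2 (permutation p = 0.0330, 0.0327 and 0.0430), and in the 7 libraries with high Fos it was 0.59, -0.78 and 0.57 (permutation p = 0.142, 0.0299 and 0.180). Exonic bases over all transcripts, with shared bases counted once, are 3081 for Atp1b1, 2186 for Fxyd1, 10815 for Slc4a4 and 10920 for Slc12a2. Slc4a4 and Slc12a2, with over 6000 exonic bases, are themselves among the genes that make up the index, so a positive r is partly built in for them. The share of all genes that follow the index as closely was not computed, so these relations are not shown to be particular to the genes named. The index was chosen after earlier results were known, and its part in the inverse relation of Atp1b1 and Fxyd1 was not tested.

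**Figure D4:**
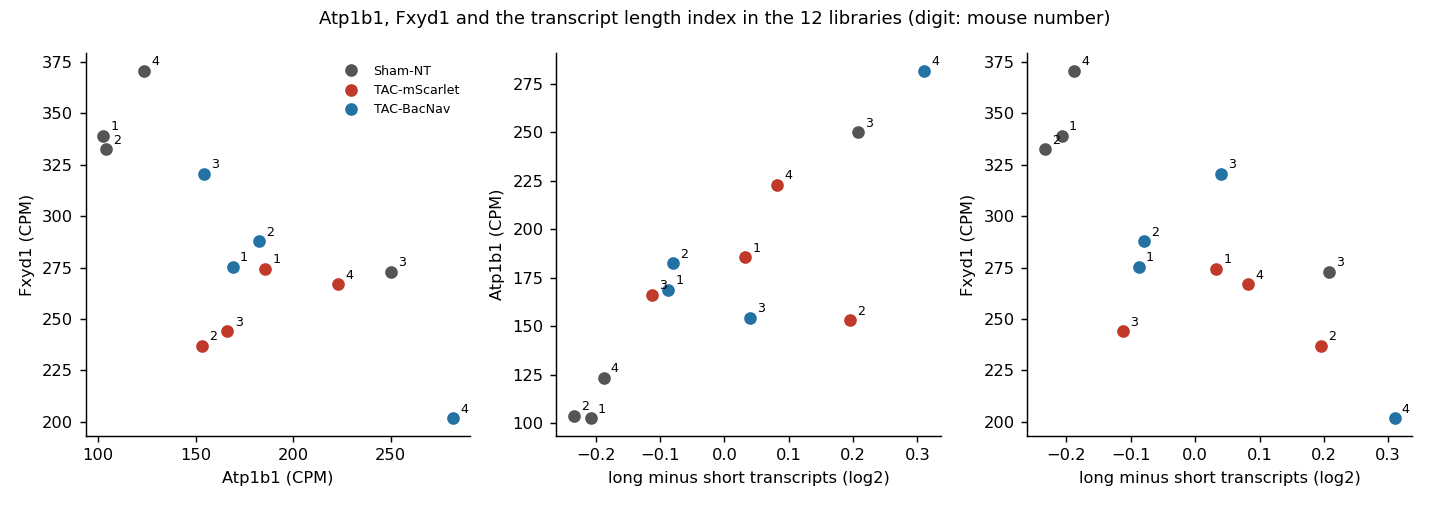
Left, Fxyd1 against Atp1b1 (both in CPM). Middle and right, Atp1b1 and Fxyd1 (CPM) against the exon length index (log2, genes with over 6000 exonic bases minus genes with under 1500). Each point is a library, coloured by group, with its mouse number. Sham-NT 3 and TAC-BacNav 4 lie at a high index and high Atp1b1, and Sham-NT 1, 2 and 4 at a low index and high Fxyd1. TAC-mScarlet 2 departs from this for Atp1b1, with an index of 0.20 and 153 CPM, the lowest Atp1b1 level of both constricted groups.

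The genes whose pattern over the 12 libraries was most like that of each of the 4, among 10791 genes of at least 5 CPM, were found by Pearson's r of log2(CPM + 1). Only symbols of a capital letter followed by lower-case letters or digits were named. The 4 genes themselves and genes called Gm with a number were passed over, so a closer match may have been left out. For Atp1b1 they were Clec16a (r = 0.97), Rnf139 (0.96) and Efcab14 (0.96). For Fxyd1 they were Txnrd2 (0.97), Timm13 (0.97) and Ggnbp1 (0.96). Slc4a4 was less closely matched, by Pmpcb (0.86), Rps6ka2 (0.84) and Ncs1 (0.84), and Slc12a2 was matched by Inpp4a (0.93), Phactr4 (0.89) and Shroom4 (0.89).

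Per kilobase of exon, Fxyd1 was the most abundant of the 4 genes. Sham-NT levels were 150 ± 18.7 CPM per kilobase for Fxyd1 and 47.05 ± 22.9 for Atp1b1 (SD, n = 4). Slc12a2 stood at 4.34 ± 0.31 and Slc4a4 at 2.62 ± 0.86 CPM per kilobase, and the sodium/calcium exchanger Slc8a1 at 21.3 ± 2.80. These levels divide by the union of exons of all transcripts, which can exceed the length of the transcript expressed.

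The ratio of Slc12a2 to the potassium/chloride cotransporter Slc12a4, which moves chloride the other way, was taken within each library and so does not depend on scaling. Slc12a2 counts per Slc12a4 count were 0.918, 0.992, 0.950 and 0.924 in Sham-NT 1 to 4, 1.13, 1.24, 0.766 and 0.962 in TAC-mScarlet 1 to 4, and 0.738, 1.28, 0.984 and 1.44 in TAC-BacNav 1 to 4. The sham ratios lay inside the range of each constricted group. The mean log2 ratio was higher by 0.09 in TAC-mScarlet and by 0.18 in TAC-BacNav than in Sham-NT, and by 0.09 in TAC-BacNav than in TAC-mScarlet. Groups were compared with exact permutation (two-sided, 70 arrangements, smallest p 0.0286), which gave p = 0.571, 0.343 and 0.714, each with an adjusted p of 0.714 over 3 tests.

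A wider list of 109 genes, which includes the 4, was read beside them. It was chosen with earlier results of these data known, so its share of calls is a description and not a test. It holds sodium transporters and genes that work with them, such as chloride/bicarbonate exchangers, carbonic anhydrases, potassium/chloride cotransporters, kinases and phosphatases; 79 had a row and 73 were tested. In TAC-mScarlet against Sham-NT 3 of the 73 rose, 6 fell and 64 did not pass, that is 12.3% called against 5.17% of all genes. Their median log2 fold change was 0.0019, against 0.0044 for all genes tested. For TAC-BacNav, 0 of 73 were called by edgeR against either TAC-mScarlet or Sham-NT, with 6 (8.22%) and 11 (15.1%) at an unadjusted p below 0.05, beside 3.36% and 11.1% of all genes, and medians of 0.02 in both, and DESeq2 and limma-voom called 0 as well. The count of 9 in the first comparison was 4 without Sham-NT 1, 0 without Sham-NT 2 or Sham-NT 4, and 2 without TAC-mScarlet 3, and it was 4 within the libraries with high Fos and 1 within those with low Fos. The count over all genes moved too, from 719 to 256, 14, 20 and 97 without Sham-NT 1, Sham-NT 2, Sham-NT 4 and TAC-mScarlet 3, and to 692 and 96 within high and low Fos. Of the 9, Slc4a2 and Tesc kept their calls within the libraries with high Fos, and Fxyd6 within those with low Fos.

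Around Fxyd1, 1 of 4 FXYD genes tested (25%) passed in TAC-mScarlet against Sham-NT, beside 5.17% of all genes. Fxyd6, a relative found mainly in brain, rose from 33.4 ± 6.69 CPM in Sham-NT to 80.0 ± 34.0 CPM in TAC-mScarlet (log2 fold change 1.27 ± 0.24, SE, edgeR adjusted p = 0.0204), with TAC-mScarlet 3 highest at 130 CPM and no overlap. It averaged 48.02 ± 7.87 CPM in TAC-BacNav (-0.74 ± 0.23 against TAC-mScarlet, adjusted p = 0.9995). The call was lost without Sham-NT 2 or Sham-NT 4, and 13.1% of all genes had no overlap in TAC-mScarlet against Sham-NT. Of 8 kinases, phosphatases and other proteins acting on the pump, 0 were called in any comparison. Of all genes 5.17%, 0% and 0.0144% were called in the 3 comparisons.

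Around Slc4a4, 3 of 14 bicarbonate transporters and carbonic anhydrases fell in TAC-mScarlet and 11 did not pass, that is 21.4% called beside 5.17% of all genes. The list's log2 values were split, 6 positive and 8 negative, with a median of -0.59. Ventricular cardiomyocyte markers had a median of -0.51 in this comparison, and their part in the list's values was not tested. The chloride/bicarbonate exchangers Slc4a3 (235 ± 15.5 to 133 ± 34.8 CPM, log2 fold change -0.82, edgeR adjusted p = 0.0258), Slc4a2 (37.4 ± 5.48 to 23.6 ± 4.79 CPM, -0.66, adjusted p = 0.0370) and Slc26a6 (12.9 ± 0.37 to 6.84 ± 1.84 CPM, -0.92, adjusted p = 0.0241) were those 3, with no overlap between the groups. In this comparison 6 of the 14 and 13.1% of all genes had no overlap. The 3 exchangers bring acid equivalents into the cell, the direction opposite to sodium/bicarbonate uptake. Their values in TAC-BacNav lay between the other two group means, at 168 ± 36.7, 26.5 ± 4.57 and 8.67 ± 0.77 CPM, with adjusted p of 0.9995 against TAC-mScarlet and 0.367 to 0.394 against Sham-NT. Each of the 3 calls was lost without Sham-NT 2, Sham-NT 4 or TAC-mScarlet 3. Those of Slc4a2 and Slc4a3 were also lost without Sham-NT 1, that of Slc4a2 without TAC-mScarlet 1 and with library size scaling or the exon length covariate, and that of Slc4a3 without TAC-mScarlet 4. Slc4a2 shares 1141 exonic bases with Fastk on the opposite strand. Of 8 sodium/proton exchange genes tested 1 (12.5%) was called, beside 5.17% of all genes. Tesc, a calcium-binding partner of the exchanger, fell (232 ± 62.7 to 134 ± 8.63 CPM, -0.79, edgeR adjusted p = 0.0381), a call lost with limma-voom and kept in 1 of 8 fits that left out a library, without Sham-NT 3.

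Around Slc12a2, 0 of 6 cation/chloride cotransporters tested passed in TAC-mScarlet against Sham-NT, beside 5.17% of all genes. Their log2 values ran from -0.79 for the potassium/chloride cotransporter Slc12a5 (edgeR adjusted p = 0.140) to 0.10 for Slc12a2 itself. In the WNK kinase pathway, which activates sodium/potassium/chloride cotransport by phosphorylation, 1 of 9 genes (11.1%) passed in the same comparison. Wnk2 fell from 43.3 ± 12.6 to 19.8 ± 7.85 CPM (-1.14, edgeR adjusted p = 0.0468), a call kept in 1 of 8 fits that left out a library, without TAC-mScarlet 1, and lost with library size scaling, with the exon length covariate and with only the 2 groups in the fit.

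Among sodium/calcium exchangers Slc8a1 was at 400 ± 52.7, 364 ± 44.3 and 414 ± 14.4 CPM (-0.14 in the first comparison, edgeR adjusted p = 0.565). In that comparison 1 of 4 genes tested (25%) passed, beside 5.17% of all genes. That gene was Slc24a2, a potassium-dependent exchanger with 2, 6, 4 and 4 counts in Sham-NT against 32, 16, 56 and 27 in TAC-mScarlet (edgeR adjusted p = 0.0229). Of 17 other sodium-coupled carriers 11.8% were called. The glutamate transporter Slc1a3 rose (2.19 ± 0.49 to 8.22 ± 5.11 CPM, 1.92, edgeR adjusted p = 0.0229) and the amino acid transporter Slc38a3 fell (108 ± 13.6 to 54.7 ± 18.1 CPM, -0.99, edgeR adjusted p = 0.0241). The calls of Slc24a2, Slc1a3 and Slc38a3 were each lost without Sham-NT 2 or Sham-NT 4, those of Slc24a2 and Slc1a3 also without TAC-mScarlet 3, that of Slc1a3 with limma-voom, and that of Slc38a3 without Sham-NT 1.

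**Figure D5:**
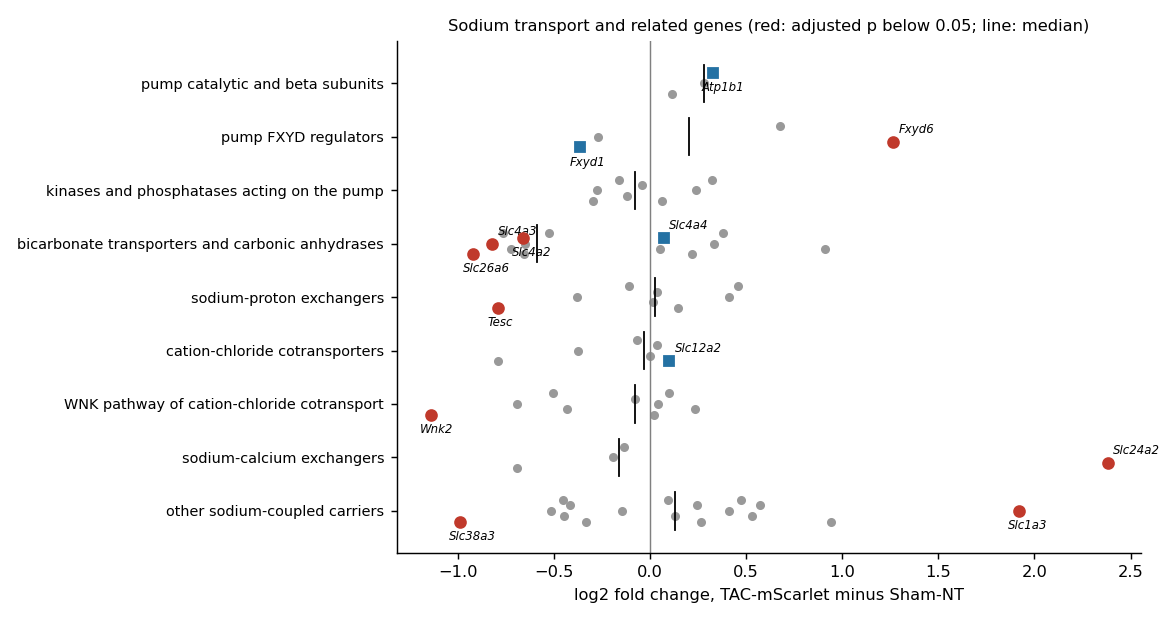
Log2 fold change of 73 sodium transport and related genes, TAC-mScarlet minus Sham-NT (x axis), by list (y axis); red points have an adjusted p below 0.05, blue squares are Atp1b1, Fxyd1, Slc4a4 and Slc12a2, and black lines are list medians. The 3 genes that rose and 6 that fell are named, and none of the blue squares passed.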

How the data were processed

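Whole-number counts per gene from 12 libraries were used as deposited; per the submitters' processing notes the authors aligned reads with HISAT2 and counted them with featureCounts, with the versions and the strand setting not stated in those notes. The notes name GRCh38, whereas the tables carry mouse identifiers; 14946 of 14957 matched GENCODE vM21 (GRCm38) without version, which gave positions and exon lengths. Every gene had at least 30 counts in all and was above 0 in at least 6 libraries.

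The test was edgeR's (version 4.0.16, under R 4.3.3; filterByExpr by group, 13910 genes kept; TMM scaling; robust quasi-likelihood fit of all 12 libraries; two-sided tests). SE was taken as |log2 fold change| over root F. Alternatives were 8 settings planned, 3 chosen after seeing the data (each side of the Fos split, and the exon length covariate), and each library left out. DESeq2 was 1.42.0 and limma 3.58.1. The fit was also run on simulated counts, drawn independently for each gene. These held no Fos or exon length shift between libraries, so that run does not bear on such shifts.

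Each library is a separate mouse, and libraries of a group differed by more than counting noise (chi-square over degrees of freedom at least 5.35). The 4 genes and all lists were chosen with earlier results of these data known. Named genes are those 4, Slc8a1, the genes of the ratio, listed genes called in any comparison, and the 3 genes most like each of the 4. Slc12a5 was named after its value was seen, as an end of a range. Some planned genes and ratios are not reported here, and list counts leave them out. The permutation test of correlations used 100000 shuffles of the libraries without regard to group, so its p also takes in differences between group means.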

Additional observations from a re-analysis of the deposited data

Results flagged for a closer look

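The Atp1b1 level of Sham-NT 3, 250.02 CPM, stood far from the other 3 sham libraries. Its gap to the nearest of them was 0.857 of the group's range, above Dixon's 95% critical value for 4 samples. Of 15 groups examined (5 genes in 3 groups) 1 was marked in this way, and chance marks about 1 in 20. The same library had the highest exon length index of its group, 0.21 against -0.23 to -0.19.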

How the results depend on the processing

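The 8 planned and 3 added settings gave the 12 results of the 4 genes, and each comparison was refitted with each of 8 libraries left out. For TAC-mScarlet against Sham-NT, Atp1b1 was 0.71 within the libraries with high Fos and 0.19 to 0.73 with 1 library left out, called within high Fos and without Sham-NT 3. Both of these fits leave out Sham-NT 3. Values that changed sign, none of them called, were as follows. Slc4a4 was -0.053 within the libraries with high Fos and -0.13 to 0.21 with 1 library left out, and Slc12a2 was -0.10 with the exon length covariate. For TAC-BacNav against TAC-mScarlet, Atp1b1 was -0.013 with the Fos covariate, -0.034 within the libraries with low Fos and -0.11 to 0.23 with 1 left out; Fxyd1 was -0.038 within low Fos; Slc4a4 was 0.066 and Slc12a2 -0.15 within high Fos, and Slc12a2 was -0.011 to 0.26 with 1 left out. For TAC-BacNav against Sham-NT, Slc4a4 was 0.0043 with library size scaling, 0.014 within high Fos and -0.29 to 0.050 with 1 left out, and Slc12a2 was -0.090 within high Fos. The cause was not tested.

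Genes called in TAC-mScarlet against Sham-NT numbered 719, and 1371 with DESeq2, 475 with limma-voom, 1459 with the Fos covariate, 96 within low Fos and 14 to 1055 with 1 library left out. Listed genes called were 9, and 12 with the Fos covariate, 10 with DESeq2, 7 with limma-voom or the exon length covariate, 4 within high Fos, 1 within low Fos and 0 to 9 with 1 left out. Between the constricted groups 0 genes were called by edgeR (467 at an unadjusted p below 0.05), and 5 with DESeq2, 1 with only the 2 groups in the fit and 2 within high Fos. Against Sham-NT, TAC-BacNav had 2 genes called, and 38 with DESeq2, 1 with only the 2 groups, 8 with the Fos covariate, 0 with the exon length covariate, 4 within high Fos, 34 within low Fos and 0 to 15 with 1 left out.

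Mouse numbers were not treated as pairs. Same-numbered libraries had deviations from their group means that correlated at -0.32 to 0.41, above 0.1 in 8 of 12 pairs, and a library correlated best with its own number in 7 of 24 cases. Differently numbered libraries correlated at -0.39 to 0.56. Fos was above 20 CPM in mice 1 and 2 of every group and below it in mouse 4 of every group. Whether libraries of the same number share a condition was not tested. With mouse number as a replicate block 889 genes were called between TAC-mScarlet and Sham-NT, 6 between the constricted groups and 12 between TAC-BacNav and Sham-NT, and none of the 4 genes was called (Atp1b1 0.37, Fxyd1 -0.36 in the first comparison).

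The ratio of Slc12a2 to Slc12a4 passed in no setting. With 1 library left out it was -0.0090 to 0.22 for TAC-mScarlet against Sham-NT and -0.047 to 0.27 between the constricted groups.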
